A study of Homo sapiens with 4 samples.

Results

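The genes described here encode the nuclear subunits of the oxidative phosphorylation system, and were taken by symbol from poly(A) RNA profiles of HEK293 cells with or without depletion of CNOT4. Symbols of the NDUFA, NDUFB, NDUFC, NDUFS and NDUFV series, SDHA to SDHD, the UQCR series, COX4 to COX8 and the ATP5 series were kept, with CYC1 and CYCS, while NDUFAF assembly factors and 2 pseudogenes (ATP5EP2 and UQCRBP1) were left out. This gave 86 genes of 20457 listed features. By the established composition of the complexes, 36 belong to complex I, 4 to complex II, 10 to complex III, 16 to complex IV and 16 to complex V, and CYCS encodes cytochrome c. The other 3 matched the ATP5 pattern without being subunits: ATP5S, ATP5SL and the readthrough ATP5J2-PTCD1, which shares exons with ATP5J2. NDUFA4, named after complex I, was counted in complex IV, where its protein is now placed.

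The study asked how depletion of CNOT4, a RING-type ubiquitin ligase linked to the deadenylase complex CCR4-NOT, alters gene expression. HEK293 is an established human embryonic kidney line. The 2 siControl libraries came from cells labelled wild type that received a control siRNA, and the 2 siCNOT4 libraries from cells that received an siRNA against CNOT4, at 10 nM for 72 h in either case. Both groups thus share the line, its medium and siRNA exposure, the depletion is transient, and the labels do not say whether replicates are separate cultures, so p-values measure only the spread between these libraries, which may be technical.

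Oxidative phosphorylation passes electrons from NADH through complex I, or from succinate through complex II, to ubiquinone, on through complex III and cytochrome c to complex IV, which reduces oxygen. Complexes I, III and IV pump protons across the inner mitochondrial membrane, and complex V (ATP synthase) uses the gradient to make ATP. Complex II is built wholly from nuclear genes, while each of the others combines nuclear subunits with a few encoded in mitochondrial DNA. The mitochondrially encoded subunits were not analysed here.

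Abundance is given in TPM, a transcript abundance that is corrected for transcript length and sums to 1000000 in each library, so values are shares of the RNA sampled. The tables give no read totals, so the depth behind a value is unknown. In bulk libraries of this kind, fewer cells of a type and less RNA per cell cannot be told apart. CNOT4 was at 6.43 and 4.73 TPM in siControl replicates 1 and 2 and at 3.38 and 3.81 TPM in siCNOT4. Its log2 fold change was -0.51 (limma adjusted p = 0.184), so it was not called as deposited. It was called lower once libraries were rescaled by TMM (trimmed mean of M values): -0.95, adjusted p = 0.0359 in limma. CNOT4 was not read under the other settings used below. Of 8 markers of HEK293 cells, 7 were at 1 TPM or more in every library (NEFM was below). The summed level of the 8 was 1580 to 1860 TPM in siControl and 1360 in each siCNOT4 library. The gap came mainly from VIM (917 and 650 TPM against 369 and 354 TPM), which was called lower (-1.09, limma adjusted p = 0.0288). Others went up: INA was called higher (1.32, limma adjusted p = 0.0496), though not under TMM scaling (0.82, limma adjusted p = 0.0508). LIN28B (1.04), KRT18 (0.39) and PAX2 (0.33) were above 0 without passing, and NEFL (-0.18) and KRT8 (-0.01) were below 0 without passing. None of the 5 markers of blood, fibroblasts, endothelium and liver reached 1 TPM in every library. They summed to 1.46 and 0.982 TPM in siControl and to 5.39 and 7.22 TPM in siCNOT4, nearly all from COL1A1. COL1A1 was called higher (1.67, limma adjusted p = 0.0248), while CD3E was at 0 in 3 libraries. The part of these markers in the values below was not tested.

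Promoters of these genes are known for binding sites of NRF1, of ETS factors such as GABP, and of YY1. RefSeq promoter windows (GRCh38.p14, 250 bases before to 50 after a start) were matched for 68 of the 86 genes and searched on both strands. The NRF1 motif, GCGCA and GCGC with any 1 base between them, was present in 16 of 68 windows (23.5%), against 6.28% of 27305 RefSeq windows and 11.5% of the 10045 belonging to tested genes. The YY1 motif AAGATGGC, which holds the letters of a start codon, was present in 11 windows (16.2%), against 3.03% and 5.37%. The ETS motif ACCGGAAG was present in 5 (7.35%), against 2.32% and 4.11%. A match is a description of the letters only. The windows below are shown because they hold these motifs in genes whose log2 fold changes lie on both sides of 0. That of NDUFB4 was 0.40 (limma adjusted p = 0.151) and -0.15 under TMM scaling, and the others are reported further on. The capitals mark the motif as it reads on the gene's strand, 5′ to 3′. SDHA carried 4 copies of the same NRF1 letters, at -166, -117, -68 and -19 bases from its start.
SDHA, chr5:218144-218173, plus strand: ggtccgctttGCGCAGGCGCggcgccccca
SDHA, chr5:218193-218222, plus strand: gtggcatggtGCGCAGGCGCgatgtccccc
SDHA, chr5:218242-218271, plus strand: ccggcgtggtGCGCAGGCGCggtatccccc
SDHA, chr5:218291-218320, plus strand: ccggtgtggtGCGCAGGCGCagtctgcgca
NDUFB4, chr3:120596263-120596292, plus strand: ctctgctaacGCGCAGGCGCacttcctgaa
SDHD, chr11:112086753-112086782, plus strand: agctgtgtttGCGCATGCGCgacgggtgtg
ATP5I, chr4:674476-674505, minus strand: cgcagcaactGCGCAGGCGCagccgatgat
UQCR11, chr19:1605453-1605482, minus strand: cgccgcggccGCGCCTGCGCagtgtagccg
ATP5I, ETS, chr4:674256-674283, minus strand: gcaggttgtgCTTCCGGTgcggaggtca
NDUFA7, YY1, chr19:8321344-8321371, minus strand: tcgcggacggAAGATGGCgtccgccacc
NDUFS4, YY1, chr5:53560650-53560677, plus strand: tgcctgcagcAAGATGGCggcggtgtca
The UQCR11 and ETS windows hold the motif's reverse complement. Among tested genes with a matched window, the median log2 fold change was -0.0003 for the 15 with an NRF1 motif and -0.05 for the 50 without, -0.0003 for the 11 with a YY1 motif and -0.05 for the 54 without, and -0.29 for the 5 with an ETS motif and -0.0019 for the 60 without.

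Transcripts of the 86 genes made up 3.01% of all TPM in siControl replicate 1, 3.83% in siControl replicate 2 and 3.21% in each siCNOT4 library. The siControl libraries therefore stood on either side of the siCNOT4 pair, which lay close together. Per complex, the summed level in siControl replicates 1 and 2 and siCNOT4 replicates 1 and 2 was 8373, 10874, 9252 and 9442 TPM for complex I. For complex III it was 3074, 3762, 3128 and 3089 TPM, for complex IV 8680.5, 11534, 9488 and 9374 TPM, and for complex V 9020, 11139, 9106 and 9002 TPM. In these 4 complexes the groups overlapped, siControl replicate 2 being the highest library each time. In complex II the 4 genes summed to 770 and 791 TPM in siControl and 864 and 867 TPM in siCNOT4, without overlap (both siCNOT4 libraries were higher in 66.4% of all features), a ratio of means of 1.11, against 0.971 for complex I, 0.909 for III, 0.933 for IV and 0.898 for V. Divided by the factors of TMM scaling, the siCNOT4 sums lay below the siControl sums in all 5 complexes, complex II included (795 and 1120 against 725 and 706). Ratios of means then ran from 0.597 (V) to 0.747 (II). After this scaling both siCNOT4 libraries were lower in 34.4% of all features. The factors were 0.968 and 0.706 for siControl replicates 1 and 2, and 1.19 and 1.23 for siCNOT4 replicates 1 and 2.

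**Figure D1:**
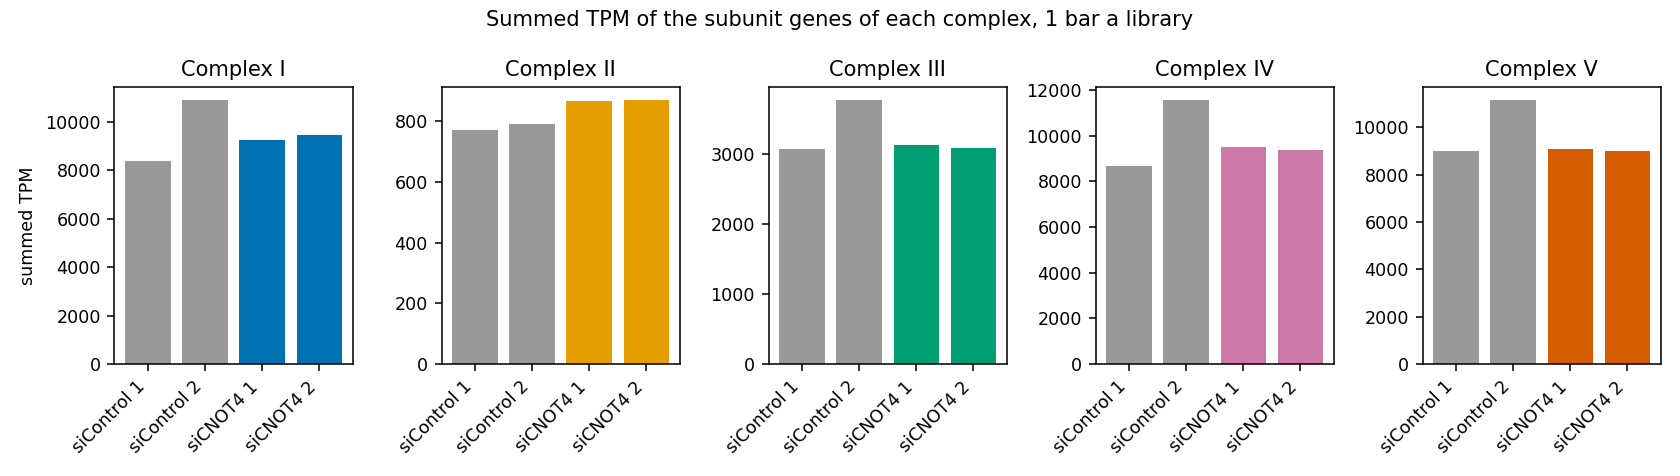
Summed TPM of the subunit genes of complexes I to V (vertical axes from 0, each with its own scale), 1 bar a library, siControl in grey and siCNOT4 in colour. In complexes I, III, IV and V the bar of siControl replicate 2 is the tallest, and in complex II the siCNOT4 bars (864 and 867 TPM) stand above the siControl bars (770 and 791 TPM).

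Of the 86 genes, 81 had a mean of at least 1 TPM and entered the comparison, which was made with limma on log2(TPM + 1) over all 14208 features at that level. A log2 fold change below is siCNOT4 minus siControl on that scale, and a gene is called where the Benjamini-Hochberg adjusted p is under 0.05. By this test 2 genes rose, SDHC and ATP5SL, beside 11.3% of all features tested, and none fell, beside 1.3%. At an unadjusted limma p under 0.05, 10 genes were higher and 7 lower, beside 38.0% and 4.0% of all features. The signs were split evenly, with 40 log2 fold changes above 0 and 41 below, whereas 81.2% of all features were above 0. The median was -0.0003 for the 81 genes and 0.50 for all features, so relative to that shift the median gene stood at -0.50, and 75 of 81 lay below the median of all features. That relative median was -0.089 after quantile normalization, -0.86 without siControl replicate 1 and -0.15 without siControl replicate 2.

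The call depends on how libraries are scaled. TMM scaling, which takes the general shift of 0.50 out, put 75 of 81 genes below 0 with a median of -0.55, while 50.6% of all features were above 0, and called no gene in limma, beside 4.45% of all features called higher and 4.33% lower. At an unadjusted limma p under 0.05 it left 1 gene higher and 17 lower, beside 18.4% and 17.8% of all features. As deposited, both siCNOT4 libraries lay above both siControl libraries for 24 genes and below them for 17, beside 66.4% and 10.6% of all features, and 40 genes overlapped. After TMM scaling the counts were 4 above and 59 below, beside 35.3% and 34.4%.

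The siControl replicates differed from each other more than the siCNOT4 replicates did. Replicate 2 exceeded replicate 1 in 64 of 81 genes, by a median of 0.31 on the log2 scale, whereas only 20.0% of all features were higher in replicate 2 and their median difference was -0.38. Between the siCNOT4 replicates the genes differed by a median of 0.0042, with a range from -0.20 to 0.26. The counts called turned on which siControl library was left out. Without siControl replicate 1, limma called 23 genes higher and 37 lower, beside 70.9% and 8.73% of all features. Without siControl replicate 2 it called 33 higher and 10 lower, beside 47.2% and 10.3%. Without siCNOT4 replicate 1 it called none, beside 3.09% higher and 0.26% lower, and without siCNOT4 replicate 2 none, beside 2.91% and 0.26%. Quantile normalization of the libraries gave 3 genes called higher (NDUFA1, COX6B1 and ATP5A1) and 3 lower (NDUFB10, NDUFA7 and ATP5I), beside 7.11% and 8.23% of all features. A fit with the replicate number as a block called 5 higher and 7 lower, beside 23.5% and 2.2%.

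**Figure D2:**
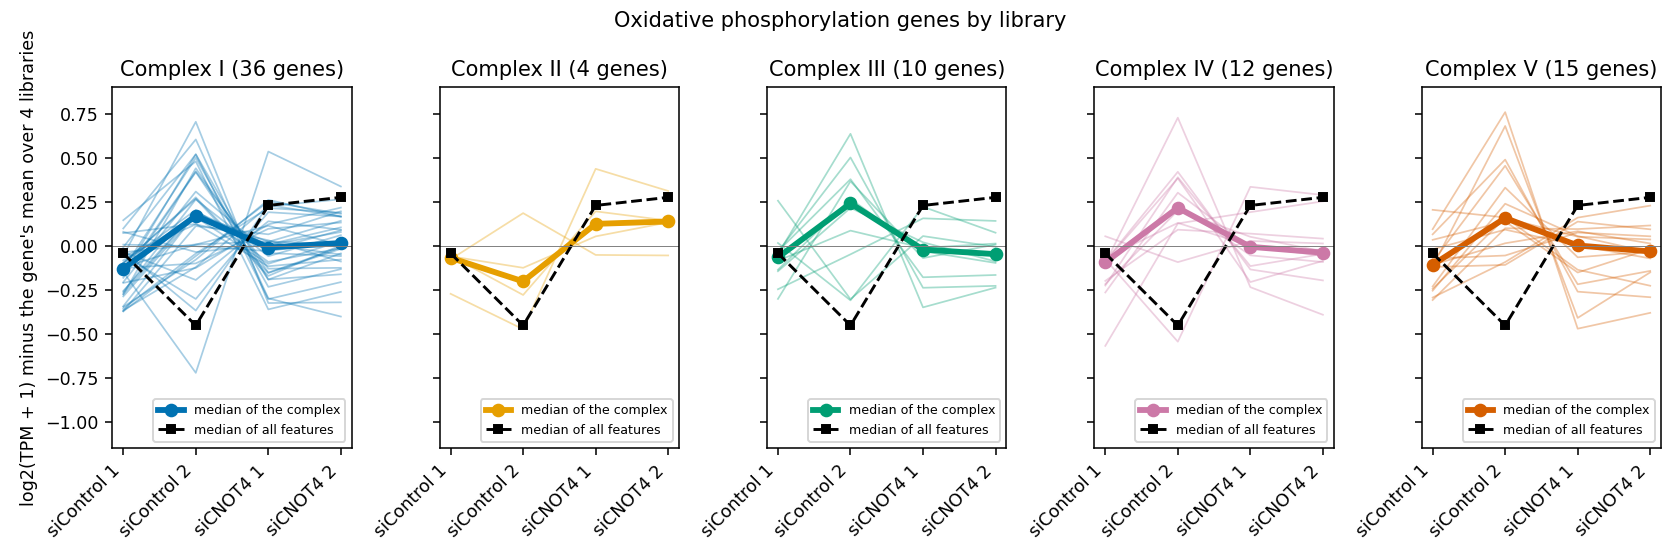
Each thin line is 1 tested subunit gene, and the vertical axis is its log2(TPM + 1) minus its mean over the 4 libraries on the horizontal axis, in a panel for each complex. The thick median lines of complexes I, III, IV and V are highest at siControl replicate 2 and nearly flat between the siCNOT4 replicates, whereas the dashed median of all features is lowest there and highest in siCNOT4.

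Complex I held 36 genes, all tested, with mean levels from 61.4 TPM (NDUFC1) to 869 TPM (NDUFS5). None was called, 18 had a log2 fold change above 0 and 18 below, and their median was -0.50 relative to all features. NDUFS1, the largest core subunit, carries iron-sulfur clusters of the NADH-oxidising arm (GRCh38 chr2:206114817-206159603, minus strand). It was at 118 and 79.2 TPM in siControl and at 191 and 166 TPM in siCNOT4, higher in both siCNOT4 libraries than in either siControl library. Its log2 fold change of 0.87 ± 0.23 (SE) did not pass (limma adjusted p = 0.054), and it was the 1 gene of complex I above the median of all features. That change was 0.33 under TMM scaling (limma adjusted p = 0.215) and 0.63 after quantile normalization (0.0632). With a trend on transcript length and GC content taken out of each library it was 0.06 (limma adjusted p = 0.73). The other 6 core subunits ran from -0.51 to 0.08, and the 7 core genes had a median of -0.17 against 0.03 for the 29 accessory genes. Relative to all features these medians were -0.67 and -0.47. They were -0.32 and -0.26 once a trend on transcript length and GC content was taken out of each library. The difference between core and accessory genes was not tested.

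The 3 lowest log2 fold changes of complex I belonged to accessory genes, followed by the core genes NDUFS8 (-0.51) and NDUFS7 (-0.37). NDUFB10, on the intermembrane-space side of the proton-pumping arm, was at 396 and 563 TPM in siControl and at 301 and 279.8 TPM in siCNOT4, both below. Its log2 fold change was -0.70 ± 0.19 (limma adjusted p = 0.0593). NDUFA7 was at 216 and 273 TPM in siControl and 152 and 163 TPM in siCNOT4, again without overlap (-0.62 ± 0.17, limma adjusted p = 0.0582). Both were called lower by limma after quantile normalization (adjusted p = 0.0465 and 0.0357) and after a trend on transcript length and GC content was taken out of each library (0.0232 and 0.0125). NDUFB7, which like NDUFB10 faces the intermembrane space, was at 337 and 571 TPM in siControl and at 279.3 and 280.1 TPM in siCNOT4. Its siControl values were 1.70-fold apart, and its log2 fold change of -0.65 had a limma adjusted p of 0.106.

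At the other end, NDUFS4, an accessory subunit of the NADH-oxidising arm, was at 304 and 366 TPM in siControl and 464 and 435 TPM in siCNOT4. NDUFA1, a small membrane-arm subunit encoded on the X chromosome, was at 534 and 663 TPM in siControl and 822 and 784 TPM in siCNOT4. NDUFB3, another membrane-arm subunit, was at 150.5 and 179 TPM and at 227 and 233 TPM. All of these were higher in both siCNOT4 libraries, with log2 fold changes of 0.43, 0.43 and 0.49 that did not pass in limma (adjusted p = 0.0876, 0.0865 and 0.0732), and each turned below 0 under TMM scaling (-0.12, -0.12 and -0.06).

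Complex II, succinate dehydrogenase, also serves the tricarboxylic acid cycle. SDHC, one of the membrane anchors that hold heme and bind ubiquinone, lies at GRCh38 chr1:161314257-161375340, plus strand. It was at 67.0 and 58.2 TPM in siControl and at 110.3 and 101 TPM in siCNOT4, without overlap. It rose by a log2 fold change of 0.75 ± 0.17 (limma adjusted p = 0.0468), a change of 0.21 under TMM scaling (adjusted p = 0.404) and of -0.17 once the length and GC trend was removed, where the direction turned. The length used for SDHC in that trend was 13566 nt, the longest of the 81 genes. SDHD, the partner anchor, was at 119.6 and 102 TPM in siControl and 143 and 138 TPM in siCNOT4, higher in both siCNOT4 libraries. Its log2 fold change of 0.34 (limma adjusted p = 0.157) was -0.21 under TMM scaling and -0.11 after trend removal.

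Neither catalytic subunit of complex II was called. SDHA, the flavoprotein that oxidises succinate, was at 283 and 270.2 TPM in siControl and 306 and 323 TPM in siCNOT4 (0.19, limma adjusted p = 0.304), and turned below 0 under TMM scaling (-0.36) and trend removal (-0.20). SDHB, the iron-sulfur subunit, was at 300.2 and 360.3 TPM in siControl and at 305.4 and 304.8 TPM in siCNOT4, within the siControl range (-0.11, limma adjusted p = 0.586). The anchors had a median log2 fold change of 0.54 and the catalytic subunits 0.04; the difference between these roles was not tested.

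Complex III passes electrons from ubiquinol to cytochrome c. None of its 10 genes was called, 7 were below 0, and every one lay below the median of all features. UQCR11, a small accessory subunit, was at 103 and 167 TPM in siControl and at 83.6 and 90.5 TPM in siCNOT4, both below (-0.59 ± 0.25, limma adjusted p = 0.124). UQCR10, another small subunit, was at 385 and 511 TPM in siControl and 347 and 350.4 TPM in siCNOT4 (-0.35, limma adjusted p = 0.167). UQCRH, the hinge protein that contacts cytochrome c1, was at 909.6 and 1319 TPM in siControl and at 789 and 795 TPM in siCNOT4 (-0.47, limma adjusted p = 0.117). These 3 were called lower by limma after trend removal (adjusted p = 0.0453, 0.0411 and 0.0372). UQCRHL, a near-identical copy of UQCRH, took 4.95% and 4.42% of their joint TPM in siControl and 6.31% and 5.83% in siCNOT4, and how reads were split between the copies is uncertain.

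The electron-carrying core subunits of complex III were not called as deposited, after TMM or quantile scaling, or after trend removal. UQCRFS1, the Rieske iron-sulfur protein, was at 415 and 476 TPM in siControl and 549 and 544 TPM in siCNOT4, higher in both (0.30, limma adjusted p = 0.142), but at -0.25 under TMM scaling and -0.29 after trend removal. CYC1, cytochrome c1, was at 247 and 167 TPM in siControl and 214 and 205 TPM in siCNOT4, between its siControl values (0.05, limma adjusted p = 0.867), with a sign that turned under TMM scaling (-0.50) and quantile normalization (-0.10). CYCS, the soluble carrier cytochrome c (GRCh38 chr7:25120091-25125361, minus strand), was at 71.1 and 57.01 TPM in siControl and at 105.6 and 105.5 TPM in siCNOT4, without overlap. Its log2 fold change of 0.72 ± 0.18 did not pass (limma adjusted p = 0.0524), was 0.18 under TMM scaling, and left it among the 6 genes above the median of all features.

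Complex IV, cytochrome c oxidase, had 12 tested genes with means from 178 TPM (NDUFA4) to 2054 TPM (COX7C), the highest of all 86 genes. None was called, 5 were above 0 and 7 below. COX5B, the zinc-binding subunit (GRCh38 chr2:97646040-97648383, plus strand), was at 553 and 982 TPM in siControl and at 504 and 452 TPM in siCNOT4. Both siCNOT4 libraries were lower, yet the siControl replicates were 1.77-fold apart, and the log2 fold change of -0.63 ± 0.27 did not pass (limma adjusted p = 0.126). NDUFA4 was at 164 and 118 TPM in siControl and at 218 and 211 TPM in siCNOT4, higher in both (0.62 ± 0.19, limma adjusted p = 0.0712, and 0.08 under TMM scaling).

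Several complex IV subunits exist as ubiquitous and tissue-restricted isoforms, and these cells used the ubiquitous one in every pair measured. COX4I1 ranged from 938 to 1411 TPM while COX4I2, the lung and hypoxia-associated form, was listed at 0 in all 4 libraries. COX6A1 ranged from 574 to 879.7 TPM and the heart and muscle form COX6A2 reached 0.184 TPM in 1 library and was at 0 in the others. COX6B1 ranged from 1516 to 1855 TPM against at most 0.444 TPM for COX6B2, and COX8A from 335 to 371 TPM against at most 0.927 TPM for COX8C, both testis-associated. COX7A2 ranged from 610 to 904 TPM and COX7B from 878 to 1173 TPM. In COX4I1, COX6A1, COX6B1, COX7A2, COX7B and COX8A alike the groups overlapped. Their log2 fold changes ran from -0.29 for COX4I1 to 0.11 for COX6B1, which was -0.44 under TMM scaling. COX4I2, COX6A2, COX6B2 and COX8C, together with ATP5L2 of the ATP5 series, are the 5 genes not tested, since their means lay below 1 TPM.

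Complex V had 15 tested genes, with means from 54.7 TPM (ATP5D) to 1344 TPM (ATP5B), 7 above 0 and 8 below, none called and every one below the median of all features. ATP5I, the membrane subunit e that takes part in pairing of ATP synthases (GRCh38 chr4:672436-674338, minus strand), was at 595 and 944 TPM in siControl and 402 and 428 TPM in siCNOT4. Both siCNOT4 libraries lay below, and its log2 fold change of -0.85 ± 0.23 was the lowest of the 81 genes (limma adjusted p = 0.0554). It was called lower after quantile normalization (limma adjusted p = 0.047) and after trend removal (0.0189). Among the 4 tested stalk subunits, which join the catalytic head to the membrane part, ATP5J was at 264 and 304 TPM in siControl and at 363 and 380.2 TPM in siCNOT4, higher in both (0.39, limma adjusted p = 0.0952, but -0.16 under TMM scaling).

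ATP5A1 and ATP5B encode the alpha and beta subunits, which alternate in equal number in the catalytic head. ATP5A1 (GRCh38 chr18:46080248-46104334, minus strand) was at 1154 and 1163 TPM in siControl and at 1379 and 1338 TPM in siCNOT4, higher in both. ATP5B (GRCh38 chr12:56638175-56646068, minus strand) was at 1536 and 1490 TPM in siControl and at 1212 and 1138 TPM in siCNOT4, lower in both. Their siControl replicates were close, within 0.05 on the log2 scale, unlike those of most of the 81 genes. Neither passed, with log2 fold changes of 0.23 ± 0.11 for ATP5A1 (limma adjusted p = 0.169) and -0.36 ± 0.12 for ATP5B (limma adjusted p = 0.0756). ATP5A1 turned to -0.32 under TMM scaling and -0.35 after trend removal, while ATP5B was at -0.91 and -0.72. After quantile normalization ATP5A1 was at 0.48 (limma adjusted p = 0.0436) and ATP5B at only -0.10 (limma adjusted p = 0.572). The log2 fold change of ATP5A1 thus stayed above that of ATP5B after trend removal and quantile normalization. TMM scaling divides a whole library by its factor, so it cannot change the order of these genes.

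The membrane c ring is encoded by 3 genes, ATP5G1, ATP5G2 and ATP5G3, whose mature proteins are identical. ATP5G2 was at 608 and 816 TPM in siControl and 485 and 474 TPM in siCNOT4, lower in both (-0.55, limma adjusted p = 0.0702). ATP5G1 was at 323 and 348 TPM and at 284 and 312 TPM, also lower in both (-0.17, limma adjusted p = 0.354). ATP5G3 was at 138 and 140.1 TPM and at 153 and 151 TPM, slightly higher in both (0.13, limma adjusted p = 0.502), with the sign turning under TMM scaling (-0.42), quantile normalization (-0.07) and trend removal (-0.10). ATP5G2 supplied 56.8% and 62.6% of the joint TPM in siControl and 52.6% and 50.6% in siCNOT4, and ATP5G3 12.9% and 10.7% against 16.6% and 16.1%.

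Among the 3 genes that are no subunits, ATP5SL (now DMAC2), a factor in complex I assembly, was at 74.8 and 70.5 TPM in siControl and at 112 and 124 TPM in siCNOT4, without overlap. It rose by 0.69 ± 0.16 (limma adjusted p = 0.0478), or 0.14 under TMM scaling (adjusted p = 0.59). ATP5S was at 18.6 and 13.5 TPM in siControl and at 31.4 and 29.6 TPM in siCNOT4, the highest log2 fold change of the 81 (0.90 ± 0.26, limma adjusted p = 0.0631), with the sign turning after trend removal (-0.04).

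**Figure D3:**
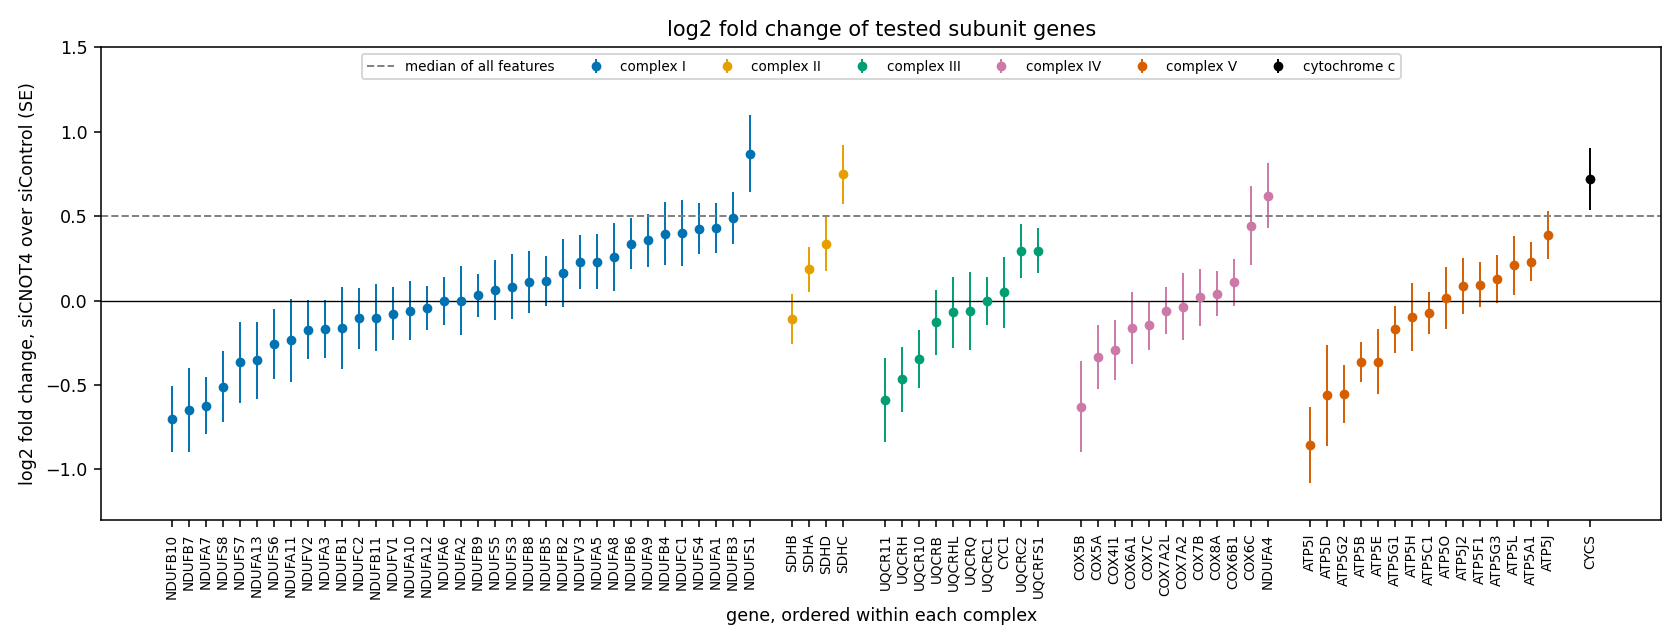
Log2 fold change (siCNOT4 minus siControl on log2(TPM + 1), vertical axis, with limma standard errors as bars) of tested subunit genes and CYCS, ordered within each complex on the horizontal axis; 1 subunit gene and the 3 genes that are no subunits are not drawn. The points spread on both sides of 0, from -0.85 (ATP5I) to 0.87 (NDUFS1), and most lie under the dashed line at 0.50, the median of all features.

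Ratios of genes within a library do not depend on a scaling factor for the whole library, though they do on trends with length and GC content. For 8 pairs of protein partners, 6 ratios did not overlap between the groups and 2 did, beside 70.1% of 3240 pairs of the tested genes whose ratios did not overlap. ATP5A1 over ATP5B, at 0.751 and 0.781 in siControl, reached 1.14 and 1.18 in siCNOT4, so the more abundant partner differed between the groups. SDHC over SDHD, at 0.56 and 0.568 in siControl, reached 0.773 and 0.734 in siCNOT4, also apart. With the length and GC trend removed, however, SDHC (-0.17) stood below SDHD (-0.11), so that the order of these partners turned. COX5A over COX5B was 0.78 and 0.625 against 0.83 and 0.886, and SDHA over SDHB was 0.942 and 0.75 against 1.0 and 1.06. These also did not overlap, but the gap between the groups was smaller than the gap between the siControl replicates. The flavin and iron-sulfur pair NDUFV1 over NDUFV2 was 0.8 and 0.73 against 0.819 and 0.813, and NDUFS7 over NDUFS8, which carry clusters on the path to ubiquinone, was 0.566 and 0.61 against 0.648 and 0.65. Here too the groups did not overlap, but in both pairs the siControl replicates lay further apart than the groups. For CYC1 over UQCRFS1 and for UQCRC1 over UQCRC2, the core proteins facing the matrix, the siCNOT4 values lay within or beside the siControl range and overlapped it. A ratio of TPM is per transcript length and is not a protein ratio, and with 2 libraries against 2 an exact permutation test cannot go below p = 0.333.

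**Figure D4:**
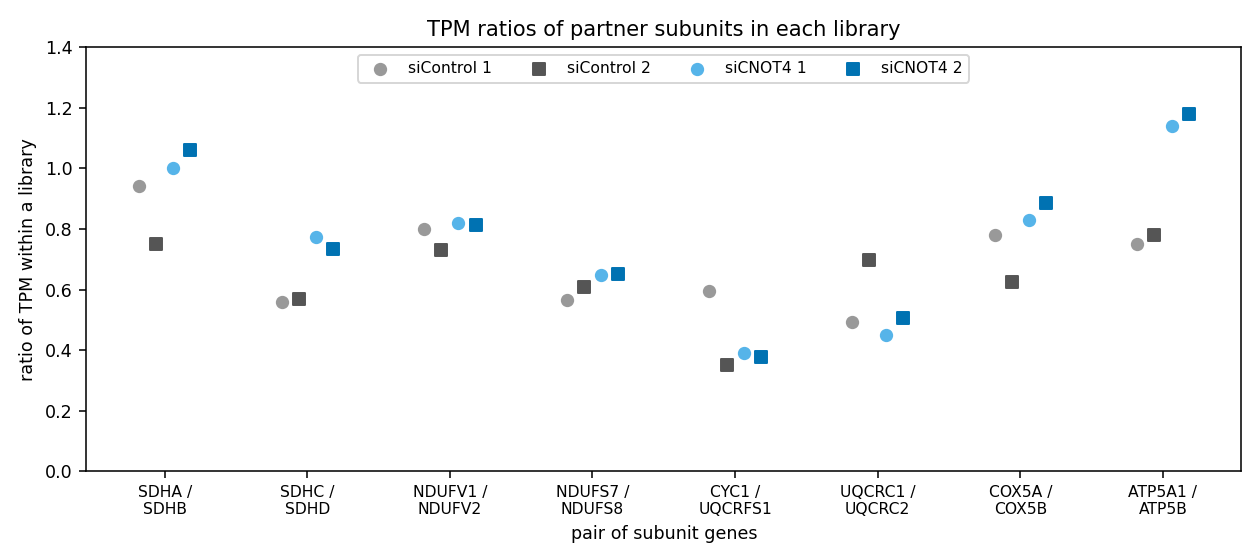
TPM ratio of partner subunits (vertical axis, from 0) for 8 pairs on the horizontal axis, 1 point a library. ATP5A1 over ATP5B is below 1 in both siControl libraries (0.751 and 0.781) and above 1 in both siCNOT4 libraries (1.14 and 1.18).

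Transcripts of these genes are short, with a median length of 963 nt over the 81 tested against 2908 nt for all features (GENCODE 29). Length and GC content moved with the differences, both between the groups and between replicates. Across the 81 genes, the log2 fold change had a Spearman rho of 0.319 with length and -0.483 with GC content. The difference between the siControl replicates had a rho of -0.525 with length and 0.374 with GC content, and that between the siCNOT4 replicates -0.358 and 0.445. Across 13739 features with a length, the group difference gave 0.379 and -0.355 and the siControl difference -0.614 and 0.358. Genes of 1 library share its preparation, so these are descriptions without a test, and length and GC content were themselves related in the 81 genes (-0.365). Split at the median, the 41 genes of lower GC content had a median log2 fold change of 0.13 and the 40 of higher GC content -0.14. After a trend on length and GC content was removed from each library, the median stood at -0.28 relative to all features, with 1 gene called higher and 10 lower in limma, beside 12.2% and 14.2%. Among those lower were NDUFB10, NDUFA7, NDUFA5, UQCR11, UQCRH, UQCR10, ATP5I, ATP5G2 and ATP5B. Of these, NDUFA5 was above 0 as deposited (0.23, limma adjusted p = 0.30). It was at 94.8 and 84.8 TPM in siControl and at 107 and 104 TPM in siCNOT4, higher in both. Its sign turned with the trend removed (-0.42, limma adjusted p = 0.040).

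**Figure D5:**
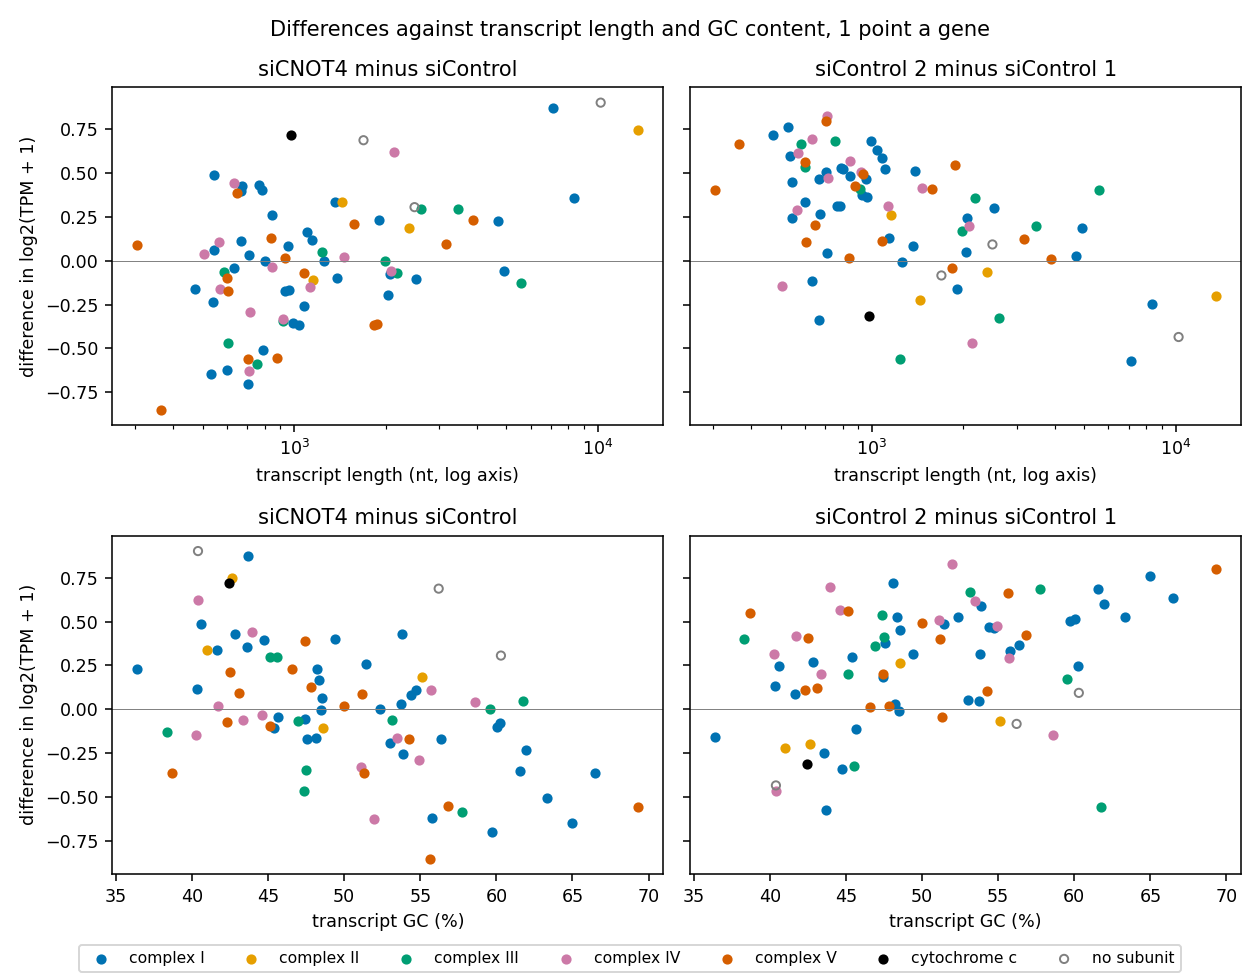
Differences in log2(TPM + 1) (vertical axes) against transcript length (log axis, nt) and GC content (percent), 1 point for each of the 81 tested genes, coloured by complex, between the groups and between the siControl replicates. The siControl replicate difference falls with length (rho -0.525) and the group difference falls with GC content (rho -0.483).

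Other genes of the pathway were read from lists of textbook members. None of the 13 complex I assembly factors and none of the 30 assembly factors of complexes II to V was called by limma as deposited, with medians of 0.22 in both lists, and at an unadjusted p under 0.05, 1 and 4 were higher and 0 lower, beside 38.0% and 4.0% of all features. Under TMM scaling the medians were -0.32 and -0.33, and at an unadjusted p under 0.05, 5 and 8 were lower and 0 higher, beside 17.8% and 18.4%. There NDUFAF3, an early complex I assembly factor, was called lower (-0.95, limma adjusted p = 0.0347), as was TTC19 of complex III (-0.82, limma adjusted p = 0.0495). Of 13 tricarboxylic acid cycle genes 3 rose and none fell as deposited, beside 11.3% and 1.3% of all features, with a median of 0.40, or -0.14 under TMM scaling. At an unadjusted p under 0.05, 6 were higher and 1 lower, beside 38.0% and 4.0% of all features. OGDH, of the 2-oxoglutarate dehydrogenase complex, was at 25.4 and 14.9 TPM in siControl and at 50.9 and 51.0 TPM in siCNOT4, and rose by 1.34 (limma adjusted p = 0.0433, and 0.81 with 0.048 under TMM scaling). DLD, the shared E3 component, was at 66.7 and 46.8 TPM in siControl and at 109 and 107 TPM in siCNOT4, and rose by 0.94 (limma adjusted p = 0.0459), or 0.40 under TMM scaling (adjusted p = 0.117). IDH3G, a regulatory subunit of isocitrate dehydrogenase, rose by 0.84 (limma adjusted p = 0.0422), or 0.30 under TMM scaling (adjusted p = 0.374).

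None of the 6 carriers, 4 subunits outside the symbol pattern or 13 regulators of mitochondrial gene expression was called by limma as deposited, with medians of 0.08, 0.04 and 0.46, and at an unadjusted p under 0.05 there were 1, 0 and 3 higher and none lower, beside 38.0% and 4.0% of all features. Under TMM scaling the medians of these lists were -0.47, -0.50 and -0.08, in the same order. POLRMT, the mitochondrial RNA polymerase, was called lower under that scaling (-0.99, limma adjusted p = 0.0375). There, at an unadjusted p under 0.05, 5 of the 13 regulators were lower and 1 higher, beside 17.8% and 18.4% of all features. GABPA, the DNA-binding part of GABP, was at 32.2 and 10.9 TPM in siControl and at 55.5 and 53.5 TPM in siCNOT4, higher in both (1.48, limma adjusted p = 0.0732). Its change was 0.96 under TMM scaling (limma adjusted p = 0.122). NRF1 was at 17.6 and 12.9 TPM in siControl and at 15.2 and 16.0 TPM in siCNOT4, within the siControl range as deposited (0.04, limma adjusted p = 0.909). Under TMM scaling it was at -0.47 (limma adjusted p = 0.0896).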

How the data were processed

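The authors deposited a table of TPM for each library, per the file headers, with gene symbols and no counts. Per the submitters' processing notes, FastQC 0.11.2, STAR 2.5.3a, featureCounts and the build hg19 were used; the annotation, the strand setting and the treatment of reads that fit several copies are not given in the sources used here. Values were transformed to log2(TPM + 1), features with a mean of at least 1 TPM were kept, and groups were compared with limma 3.58.1 in R 4.3.3 (lmFit, eBayes with trend, prior degrees of freedom 4.22), p-values being adjusted by Benjamini-Hochberg over all features. With this pseudocount a fold change understates changes of low genes. TMM factors were computed from TPM. The length and GC trend was a loess fit to each library's deviations. The script was tested on simulated data. The members, lists and alternatives were chosen with earlier results of these data known. Named were called genes, else the largest absolute change in each complex, CYCS and paralogue sets (17 genes). A further 18 members were chosen after their values were seen. So were NDUFA5, NDUFB4, NDUFS7 and NDUFS8 and the listed NRF1, GABPA, POLRMT, IDH3G, NDUFAF3 and TTC19. The result of 1 gene is not reported here. Coordinates and sequences are of GRCh38 and were not used with the files' build.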

Additional observations from a re-analysis of the deposited data

How the results depend on the processing

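Of the 81 genes, 2 were called higher as deposited, beside 11.3% of all features. None was with a pseudocount of 0.1, no filter, a mean of at least 5 TPM or eBayes without trend. For these settings the share of all features called was not counted. None was under TMM scaling either, beside 4.45% of all features. The count was 1 with the trend removed, beside 12.2%, or, chosen after seeing the data, without the 3 genes that are no subunits. The count called lower went from 0 to 3 under quantile normalization, beside 8.23%, and 10 with the trend removed, beside 14.2%. The replicate block gave 5 higher and 7 lower, beside 23.5% and 2.2% of features; replicate numbers are shared only as numbers, the replicate differences of the groups correlating at r = 0.171 over 14208 features. Leaving out 1 library, which leaves a lone sample assumed to vary like the other group, gave 0 to 33 higher and 0 to 37 lower, beside 2.91% to 70.9% and 0.26% to 10.3% of features.

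The median log2 fold change was -0.55 under TMM scaling and -0.29 with the trend removed, and -0.15 to 0.14 leaving out 1 library. The median relative to all features was -0.089 under quantile normalization and -0.86 to -0.15 leaving out 1 library. By complex, quantile normalization gave -0.12 for I, 0.090 for II, -0.20 for III, 0.063 for IV and -0.0084 for V, no filter gave -0.062 for II, and leaving out 1 library gave -0.86 to -0.14 for I, -0.9992 to -0.22 for III, -0.96 to -0.20 for IV and -0.93 to -0.16 for V. The causes were not tested.

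Signs were followed in every setting for 35 named members only, so the lists below leave out other genes whose sign turned. Over all 81 genes, 40 were above 0 as deposited and 6 under TMM scaling. Among the 35, signs turned under TMM scaling for ATP5A1 (-0.32), ATP5G3 (-0.42), ATP5J (-0.16), COX6B1 (-0.44), COX7B (-0.53), COX8A (-0.51), CYC1 (-0.50), NDUFA1 (-0.12), NDUFB3 (-0.058), NDUFS4 (-0.12), SDHA (-0.36), SDHD (-0.21) and UQCRFS1 (-0.25). With the trend removed they turned for ATP5A1 (-0.35), ATP5G3 (-0.10), ATP5S (-0.045), COX7B (-0.42), COX8A (-0.0005), SDHA (-0.20), SDHC (-0.17), SDHD (-0.11) and UQCRFS1 (-0.29), and under quantile normalization for ATP5G3 (-0.072), COX6A1 (0.0014), COX7A2 (0.16) and CYC1 (-0.10). Leaving out 1 library spanned 0 for COX6A1 (-0.47 to 0.14), COX6B1 (-0.036 to 0.25), COX7A2 (-0.32 to 0.25), COX7B (-0.19 to 0.23), COX8A (-0.034 to 0.11), CYC1 (-0.23 to 0.33), SDHB (-0.24 to 0.024) and UQCRHL (-0.25 to 0.11).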
